A study of Mus musculus with 18 samples.

Results

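Genes that mark adipose progenitors and preadipocytes were described here across brown adipocytes in which the lncRNA Gm15551 was targeted with and without adrenergic stimulation. The set was chosen by gene symbol, with earlier results of these data known, among them that Pdgfra was higher with both oligonucleotides against Gm15551. The levels of Pdgfra against the control oligonucleotide are therefore given as a description with no p-value, and where counts of genes past a limit include Pdgfra in such a contrast or in a joint test over all groups, nothing is read from it. The list had 9 names, Pdgfra, Pdgfrb, Dlk1, Ly6a, Cd34, Dpp4, Thy1, Cd24a and Pref1, and 8 of them had a row among the 54347 genes of the count table, since Pref1 is an older name of Dlk1. Pdgfra, Pdgfrb, Ly6a, Cd24a and Cd34, 5 in all, passed the filter on low counts and were among the 14949 genes tested. Dlk1 and Thy1 stayed below the filter and Dpp4 had no count in any library.

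All 18 libraries came from wt1-SAM cells, an immortalised line of mouse brown preadipocytes that stably carries the SAM system for CRISPR activation, so they describe 1 line and no animal. Every group was differentiated with rosiglitazone, T3, dexamethasone, insulin, indomethacine and IBMX, transfected on day 4 with a locked nucleic acid oligonucleotide (LNA) and harvested on day 7. Cells received ctrlA, the control LNA, or LNA1 or LNA2, which are directed at Gm15551, and were left unstimulated or exposed to 1 µM isoproterenol, a β-adrenergic agonist, for 24 h. This gave 6 groups of 3 libraries, and within each group the libraries carried the replicate numbers 2, 3 and 4.

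Adipocytes arise from mesenchymal progenitors of the adipose stroma, which are commonly sorted by surface proteins. PDGFRα and PDGFRβ are receptor tyrosine kinases for the platelet-derived growth factors and mark stromal progenitors and perivascular cells, respectively. DLK1, also called Pref-1, is a transmembrane protein with EGF-like repeats, related to the Notch ligands, that is made by preadipocytes and inhibits adipogenesis. LY6A, known as Sca-1, CD24 and THY1, known as CD90, are GPI-anchored surface antigens used in such sorts, CD34 is a sialomucin of progenitor and endothelial cells, and DPP4 is a surface peptidase that marks interstitial progenitors. As a rule these markers are high in the stroma and fall during differentiation.

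The oligonucleotides are shown because each comparison of the set rests on them. Capitals mark the bases complementary to Gm15551, an antisense lncRNA gene at chr3:126667329-126669044 on the minus strand (GRCm38), within an intron of Camk2d.
ctrlA: aacacgtctatacgc
LNA1: GATGACTGAGATTAGA
LNA2: AAGTAGCACGGCGTTG
All 16 bases of LNA1 and of LNA2 were complementary to Gm15551, and ctrlA had no run of 7 or more complementary bases there. The longest run complementary to Pdgfra was 8 bases for LNA1, a length reached by 22.6% of 55450 annotated genes, and 7 bases for LNA2 and for ctrlA, reached by 32.9% and 23.1% of genes. Against Ly6a the longest run was 7 bases for LNA1 and under 7 for LNA2. The longest runs against any member were 10 bases, between LNA1 and Thy1 and between LNA2 and Dpp4, both of which were at or near 0 counts in every group. These runs describe the sequences, and binding was not measured.

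The RefSeq promoter table (GRCm38.p6) had an entry for 4 members, Pdgfra, Dlk1, Cd34 and Dpp4, and that of Pdgfra is shown because Pdgfra was the member that differed from ctrlA with both LNAs. It runs from 250 bases before to 50 bases after the annotated start at chr5:75152001-75152300 on the plus strand, and capitals mark the match described next.
Pdgfra: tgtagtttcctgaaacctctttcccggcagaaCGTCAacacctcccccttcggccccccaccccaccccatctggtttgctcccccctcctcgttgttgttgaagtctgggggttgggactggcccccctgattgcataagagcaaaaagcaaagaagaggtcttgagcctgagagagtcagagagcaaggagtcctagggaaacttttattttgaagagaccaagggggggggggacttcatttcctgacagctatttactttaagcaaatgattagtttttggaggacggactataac
Both strands were searched for the cAMP response element TGACGTCA, its core TGACG, which the full element contains, the AP-1 motif TGANTCA and the GAS motif TTCNNNGAA. The Pdgfra window held 1 core match, on the reverse strand, and the Dlk1 window held 1. No other match was found in the 4 windows. Of all 32851 promoters in the table, 20.8% held the core, 1.79% the full element, 7.81% the AP-1 motif and 8.3% the GAS motif.

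The libraries held 9167560 to 19723021 counts, so that 3 counts, the floor used here, corresponded to 0.17 to 0.306 CPM, the count scaled to library size. Gm15551 itself had 1 to 14 counts per library and 42 counts over the 6 ctrlA libraries, 24 over the LNA1 and 27 over the LNA2 libraries. These sums are not scaled to library size, and the largest library, with 19723021 counts, was one of ctrlA. No test of Gm15551 is given here. The labelled cell type was checked against marker lists. The 12 mature adipocyte genes were all tested and summed to 16400 to 31700 CPM per library, with Fabp4, a fatty acid carrier, at a mean of 11800 CPM. Of the brown adipocyte markers on that list, Ucp1 was at a mean of 6.99 CPM (0.621 to 16.5) and Cidea at 12.5 CPM (3.4 to 25.4). The sum therefore says little about the brown type. Summed levels were 2.18 to 4.79 CPM for 7 endothelial genes, 8.45 to 44.7 CPM for 8 immune genes, 65.1 to 140 CPM for 8 mural genes and 2.11 to 4.26 CPM for 6 neural genes. The 6 libraries with replicate number 2 stood apart: of their counts, 2.88% to 14.3% belonged to CT010467.1, an rRNA gene, against 0.285% to 1.04% in replicates 3 and 4, and mitochondrial genes took 7.86% to 9.79% against 2.56% to 4.97%. Member results that rest on them are given with and without them, and with the replicate number as a block in the model.

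When levels were divided by exon length, the members fell into an upper and a lower set. Ly6a was highest at a mean of 19.6 CPM per kb (range 4.71 to 52.5 over the 18 libraries), followed by Cd24a at 10.5 (3.58 to 30), Pdgfrb at 3.68 (2.01 to 5.27) and Pdgfra at 1.11 (0.672 to 1.64). Cd34 at 0.0994, Dlk1 at 0.0605 and Thy1 at 0.0221 CPM per kb lay below, and Dpp4 was at 0. Pdgfrb exceeded Pdgfra in 18 of 18 libraries and Pdgfra exceeded Cd34 in 18 of 18. The order of Cd24a over Pdgfrb held in 11 of 18 libraries, that of Cd34 over Dlk1 in 11 and that of Ly6a over Cd24a in 16, so these neighbours overlapped. The order was the same without the replicate 2 libraries, with Ly6a at 12.4, Cd24a at 4.7, Pdgfrb at 4.18 and Pdgfra at 1.16 CPM per kb. Cd24a then exceeded Pdgfrb in 5 of 12 libraries and Ly6a exceeded Cd24a in 12 of 12.

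Of the tested members, Ly6a rose with isoproterenol, and Pdgfra was higher with either LNA, as was known when the set was chosen. A gene was called at an adjusted p below 0.05 and an absolute log2 fold change above 0.5. With LNA1, 1 of 5 tested members (Pdgfra) was called, where 0.442% of all 14949 genes were, and with LNA2 1 of 5 (Pdgfra), where 1.42% were; nothing is read from these counts, since Pdgfra's rise was known when the set was chosen. Between LNA2 and LNA1 no member was called against 0.923% of genes, 138 in number. With isoproterenol 1 of 5 (Ly6a) was called against 3.2% of genes. When the 6 groups were tested jointly with a limit of 0.001, no member was called against 0.455% of genes, where 1683 genes had an unadjusted p under 0.05, while DESeq2 called 1 member, Pdgfra, and 3.72% of genes.

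Since same-numbered libraries deviated together, each contrast was also fitted with the replicate number as a block. Then 1 of 5 members (Pdgfra) was called with LNA1 (2.43% of all genes), 2 of 5 with LNA2 (Pdgfra and Ly6a; 5.53%), 1 of 5 between LNA2 and LNA1 (Ly6a; 4.11%) and 1 of 5 with isoproterenol (Ly6a; 7%). The blocked joint test called 4 of 5, all but Cd34, against 8.93% of genes. Without the replicate 2 libraries, the blocked fits called no member between LNA2 and LNA1 (3.44% of genes) and none in the joint test (1%). They called Ly6a with isoproterenol (5.09%) and Ly6a beside Pdgfra with LNA2 (5.48%). In the interaction of either LNA with isoproterenol, 0% of genes and no member were called by edgeR, with or without the block. Unadjusted p-values under 0.05 numbered 105 and 116 genes for LNA1 and LNA2 without the block and 393 and 807 with it, and DESeq2 called 0 and 2 genes, none of them a member.

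Pdgfra (ENSMUSG00000029231) was higher with either LNA against Gm15551 than with ctrlA, in both states. In unstimulated cells its level was 8.06, 7.87 and 7.34 CPM in replicates 2, 3 and 4 with ctrlA. It was 14.3, 14.3 and 13.8 CPM with LNA1 and 10.6, 10.2 and 14.1 CPM with LNA2. Each of the 6 unstimulated libraries with LNA1 or LNA2 was above the 3 with ctrlA.

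With isoproterenol, Pdgfra was at 7.37, 7.08 and 6.74 CPM with ctrlA. The LNA1 libraries had 10.4, 16.4 and 13.3 CPM and the LNA2 libraries 9.78, 14.5 and 13.8 CPM. The groups again did not overlap with those of ctrlA, while LNA1 and LNA2 overlapped with each other in both states. Raw counts behind these levels were 66 to 226 per library, and Pdgfra lies at chr5:75152292-75198215 on the plus strand in the GENCODE annotation. Its exons overlap an antisense gene, Gm42802, with no count in any library, and Gm42803, with 5 counts in all.

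**Figure D1:**
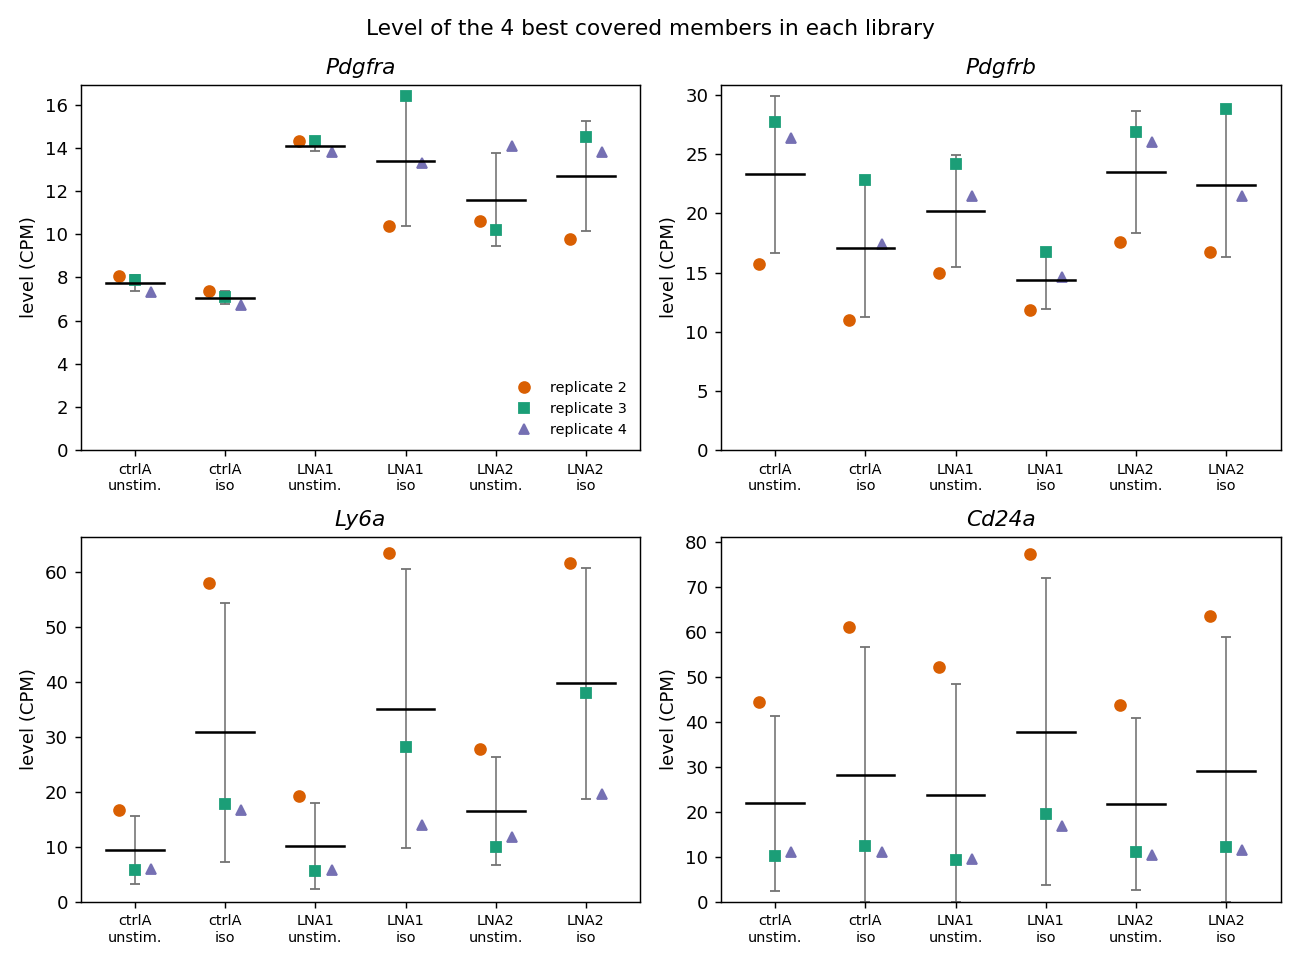
Level in CPM (counts scaled to library size, linear axes from 0) of Pdgfra, Pdgfrb, Ly6a and Cd24a in each of the 18 libraries, by group (iso, isoproterenol; unstim., unstimulated). Symbols stand for replicate numbers, black lines for group means and grey bars for the SD of 3 libraries, cut off at 0 for Cd24a. Pdgfra with LNA1 or LNA2 sits above ctrlA, Ly6a is higher with isoproterenol within each replicate number, and replicate 2 is high for Ly6a and Cd24a and low for Pdgfrb.

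Over both states the fitted log2 fold change of Pdgfra was 0.89 (SE 0.13, 6 against 6 libraries) for LNA1 and 0.71 (SE 0.13) for LNA2, which correspond to 1.86-fold and 1.64-fold. Same-numbered libraries were higher in 6 of 6 pairs with either LNA, with ratios of 1.41 to 2.32 for LNA1 and 1.3 to 2.04 for LNA2. The LNA1 and LNA2 contrasts share the 6 ctrlA libraries and are not independent of each other. Without the replicate 2 libraries the values were 1.02 and 0.88. LNA2 and LNA1 differed in log2 level by -0.18 (SE 0.13, adjusted p = 0.87, edgeR's quasi-likelihood test with Benjamini-Hochberg adjustment), which was within the spread.

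Isoproterenol left Pdgfra within the spread between libraries. Its mean over the LNAs was 11.2 CPM (SD 2.99, n = 9) unstimulated and 11 CPM (SD 3.59, n = 9) with isoproterenol, which is -0.03 in log2 fold change (SE 0.11, adjusted p = 0.973). It was lower with isoproterenol in 7 of 9 same-numbered pairs.

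Pdgfrb, the other PDGF receptor gene (ENSMUSG00000024620, chr18:61045150-61085061, plus strand), was lower with isoproterenol in 8 of 9 same-numbered pairs, by a small margin. With ctrlA its level was 15.7, 27.7 and 26.4 CPM in unstimulated replicates 2, 3 and 4 and 11, 22.8 and 17.4 CPM after isoproterenol. With LNA1 it was 15, 24.2 and 21.5 CPM and then 11.8, 16.7 and 14.6 CPM. With LNA2 it was 17.6, 26.9 and 26 CPM and then 16.7, 28.8 and 21.5 CPM. Replicate 2 was the lowest library of all 6 groups, and the stimulated and unstimulated groups overlapped for each LNA.

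The isoproterenol difference of Pdgfrb was -0.34 on the log2 scale (SE 0.17, adjusted p = 0.409). With the replicate block it was -0.34 (SE 0.06, adjusted p = 0.000404), and without the replicate 2 libraries -0.35 (SE 0.09, adjusted p = 0.0332), both past the p limit and short of the fold limit of 0.5. The blocked value was -0.45 (SE 0.10, adjusted p = 0.00931) with ctrlA and -0.486 (SE 0.105, adjusted p = 0.00632) with LNA1. With LNA2 it was -0.08 (SE 0.10, adjusted p = 0.66). The blocked interaction of LNA2 with isoproterenol was 0.37 (SE 0.14, adjusted p = 0.81) and was not called. Against ctrlA, LNA1 cells differed by -0.22 (SE 0.21, adjusted p = 1), or -0.21 (SE 0.07, adjusted p = 0.0984) with the block. The LNA2 cells differed by 0.20 (SE 0.21, adjusted p = 0.911). With the block this was 0.22 (SE 0.07, adjusted p = 0.0398), and 0.40 (SE 0.10, adjusted p = 0.0168) under isoproterenol, both short of the fold limit. With the block and without the replicate 2 libraries LNA2 cells differed from ctrlA by 0.17 (SE 0.08, adjusted p = 0.206). LNA2 was above LNA1 in 6 of 6 same-numbered pairs, by 0.43 (SE 0.21, adjusted p = 0.608), or 0.42 (SE 0.07, adjusted p = 0.00104) with the block, again short of the fold limit. Mural cells also make PDGFRβ, and 8 genes of theirs summed to 113 to 140 CPM in unstimulated and 79 to 108 CPM in stimulated ctrlA cells. The sums were 101 to 127 and 65.1 to 98.1 CPM with LNA1, and 96.1 to 115 and 72 to 122 CPM with LNA2, where the states overlapped. The median isoproterenol difference of the 5 tested was -0.44, beside -0.0021 over all genes. None was called lower without the block, where Cspg4 was at -0.475, Acta2 at -0.398, Mcam at -0.439 and Myh11 at -0.617. With the block these had adjusted p-values of 0.00154, 0.00458, 7.32e-05 and 0.0024, and Myh11, a smooth muscle myosin gene, passed the fold limit as well, at -0.655. With LNA2 against ctrlA Myh11 was higher by 0.773 with the block (SE 0.17, adjusted p = 0.0049), where no mural gene was called without it. The remaining gene, Des, which encodes the intermediate filament protein desmin, rose by 0.81 with isoproterenol (SE 0.12, adjusted p = 0.00105), and of the pericyte genes Rgs5 and Kcnj8 had no count in 16 and 14 of 18 libraries, Abcc9 had 112 counts in all and none in 1 library, and Cspg4 was at a mean of 15.5 CPM. The part of these cells in the Pdgfrb values was not tested.

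The receptors' ligands and adaptors were looked at as a list of 14 genes, of which 11 were tested. Pdgfa and Pdgfc, which encode ligands of PDGFRα, were at mean levels of 17.3 and 4.01 CPM, Pdgfb had no count in 2 libraries and Pdgfd had none in all 18. None of the 11 was called with LNA1 or LNA2, with or without the block. With isoproterenol 1 of 11 fell, Pik3r1, the regulatory subunit of PI3-kinase, whose log2 fold change was -0.57 (SE 0.11, adjusted p = 0.0046). In that contrast 3.2% of all genes were called. The median over the list was 9.2e-05 with isoproterenol beside -0.0021 over all genes tested.

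Ly6a (ENSMUSG00000075602, chr15:74994877-74998031, minus strand) was the member that rose with isoproterenol. In ctrlA cells it went from 16.6, 5.77 and 6.04 CPM in replicates 2, 3 and 4 to 57.9, 17.8 and 16.7 CPM. In LNA1 cells it went from 19.3, 5.68 and 5.8 CPM to 63.3, 28.1 and 13.9 CPM. In LNA2 cells it went from 27.7, 9.92 and 11.8 CPM to 61.5, 38 and 19.6 CPM. All 9 same-numbered pairs were higher with isoproterenol, by 1.67 to 4.95 times, whereas the groups as such overlapped with LNA1 and LNA2 because replicate 2 was high in both states.

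The isoproterenol log2 fold change of Ly6a was 1.58 (SE 0.41, adjusted p = 0.0415), a 2.99-fold difference. With the replicate block it was 1.57 (SE 0.12, adjusted p = 1.19e-07), and without the replicate 2 libraries 1.60 (adjusted p = 0.000484). The unblocked call was lost without any 1 of 11 single libraries, with adjusted p up to 0.0918, and the blocked call was kept without each of the 18 in turn, with adjusted p up to 1.2e-06. The rise was 1.66 with ctrlA, 1.77 with LNA1 and 1.30 with LNA2 in the blocked fit.

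LNA2 cells had more Ly6a than ctrlA cells in 6 of 6 same-numbered pairs, by 1.06 to 2.13 times. Without the block this was 0.57 on the log2 scale (SE 0.50, adjusted p = 0.855) and was not called. With the block it was 0.66 (SE 0.15, adjusted p = 0.00549) and was called, as was the difference from LNA1 of 0.51 (SE 0.15, adjusted p = 0.0307), which was lost without any 1 of 5 single libraries. Without the replicate 2 libraries the blocked value was 0.83 (adjusted p = 0.0375) against ctrlA and 0.70 (adjusted p = 0.0902, not called) against LNA1. For LNA1 against ctrlA the blocked value was 0.14 (SE 0.16, adjusted p = 0.649), with 3 of 6 pairs higher.

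Of the 8 immune marker genes 2 were tested, and 1 was called higher with isoproterenol, where 3.2% of all genes were called. Their summed level was 8.45 to 12.7 CPM in unstimulated and 12.2 to 24.9 CPM in stimulated ctrlA cells. It was 11.6 to 15.6 and 19.4 to 30.3 CPM in LNA1 cells and 14.5 to 28.7 and 26.1 to 44.7 CPM in LNA2 cells. Most of this was Cd68, a lysosomal glycoprotein gene at a mean of 19.5 CPM, which rose with isoproterenol and whose log2 fold change was 0.90 (SE 0.18, adjusted p = 0.00618). Csf1r, a macrophage growth factor receptor gene, was at 0.09 (SE 0.47, adjusted p = 0.982). With LNA2 against ctrlA neither was called without the block, and both were with it, Cd68 at 0.877 (SE 0.11, adjusted p = 7.74e-05) and Csf1r at 1.71 (SE 0.40, adjusted p = 0.00677). Csf1r was also called with the block between LNA2 and LNA1, at 2.06 (SE 0.44, adjusted p = 0.00496). Csf1r was near the floor, with 144 counts over the 18 libraries and a mean of 0.628 CPM (0.0887 to 2.31), which limits its values. With the block, 5.53% of all genes were called with LNA2 against ctrlA and 4.11% between LNA2 and LNA1. The part of such cells in the Ly6a values was not tested. Of the immune genes below the filter, Ptprc, which encodes CD45, had no count in 11 of 18 libraries. Adgre1, the macrophage antigen F4/80, had none in 15 and Itgam none in 3. In bulk libraries, fewer cells of a type and less RNA per cell cannot be told apart.

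Ly6a belongs to a family of near copies, and reads of these genes could be divided among them in counting. Its transcripts shared stretches of at least 100 bases at 90% identity or more with 4 other genes, of which Ly6c1 had 2904 counts over the 18 libraries, Ly6c2 20, Ly6i 16 and Ly6g none, beside 5301 for Ly6a. Ly6c1, another GPI-anchored family member, was higher with isoproterenol, at a log2 fold change of 1.32 that was not called (SE 0.39, adjusted p = 0.071), and 1.30 (SE 0.10, adjusted p = 1.35e-07) with the block. With LNA2 it was called with the block alone, at 0.768 (SE 0.13, adjusted p = 0.000523) against ctrlA and 0.559 (SE 0.13, adjusted p = 0.00748) against LNA1. The closest stretch of Ly6c1 was 96.6% identical over 263 bases. Of the 10 other family genes listed, 3 were tested. With isoproterenol Ly6h, a neuronal member, fell by 1.41 (SE 0.38, adjusted p = 0.0475), where 3.2% of all genes were called. Ly6e was abundant at a mean of 77.2 CPM and was not called.

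Among the 5 tested members, Cd24a (ENSMUSG00000047139, chr10:43578284-43584265, plus strand) differed most between replicate numbers. In ctrlA cells it was at 44.4, 10.3 and 11.1 CPM in unstimulated replicates 2, 3 and 4 and at 61.2, 12.5 and 11.1 CPM with isoproterenol. In LNA1 cells it was at 52.3, 9.23 and 9.46 CPM and then 77.4, 19.6 and 16.8 CPM. In LNA2 cells it was at 43.8, 11.1 and 10.5 CPM and then 63.6, 12.2 and 11.5 CPM. Replicate 2 lay above both other libraries in all 6 groups, so that stimulated and unstimulated groups overlapped.

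Cd24a was as high or higher with isoproterenol in each same-numbered pair, with ratios of 1 to 2.13 over 9 pairs. The log2 fold change was 0.48 (SE 0.57, adjusted p = 0.842) without and 0.46 (SE 0.06, adjusted p = 4.03e-05) with the block, and 0.41 (SE 0.08, adjusted p = 0.00698) without replicate 2, short of the fold limit in each case. With the block the rise was 0.78 (SE 0.11, adjusted p = 0.000155) in LNA1 cells and 0.29 (SE 0.11, adjusted p = 0.134) in ctrlA cells. In LNA2 cells it was 0.31 (SE 0.11, adjusted p = 0.0853). The test of the difference between LNA1 and ctrlA cells gave 0.49 (SE 0.15, unadjusted p = 0.00563, adjusted p = 1). That between LNA2 and LNA1 cells gave -0.47 (SE 0.15, adjusted p = 0.947). The difference between LNA1 and ctrlA cells was 0.809 with the block and without the replicate 2 libraries (SE 0.18, adjusted p = 1). Averaged over both states, LNA1 and LNA2 differed from ctrlA by 0.26 (SE 0.70) and 0.01 (SE 0.70), both at adjusted p = 1, and by 0.26 (SE 0.08, adjusted p = 0.0527) and 0.01 (SE 0.08, adjusted p = 0.924) with the block. A pair of processed pseudogenes with stretches 92.3% and 96.8% identical to Cd24a had no counts.

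**Figure D2:**
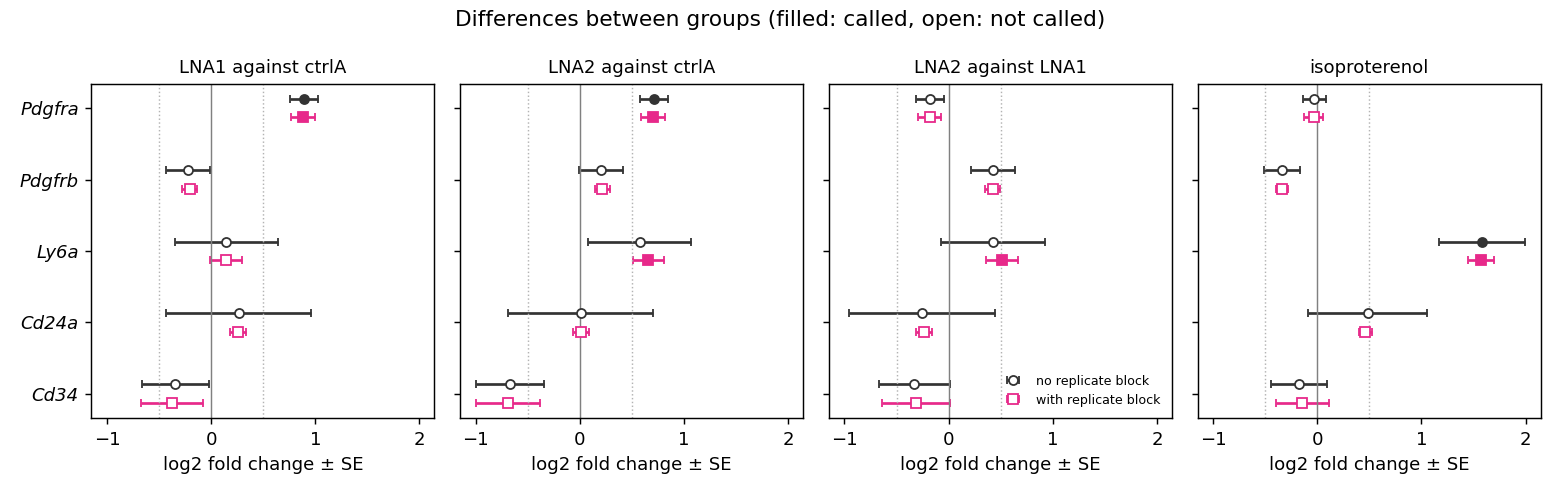
Log2 fold change with its SE of the 5 tested members in 4 contrasts, from the fit without (circles) and with (squares) the replicate number as a block. Filled symbols passed an adjusted p of 0.05 and an absolute log2 fold change of 0.5 (dotted lines). Estimates of both fits lie close together, and the SE of Ly6a and Cd24a is smaller with the block, as for Ly6a with isoproterenol at 0.41 against 0.12.

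Cd34 (ENSMUSG00000016494, chr1:194938819-194961279, plus strand) was the least abundant member that could be tested, with 3 to 15 counts per library. Unstimulated ctrlA cells had 15, 11 and 15 counts in replicates 2, 3 and 4 and stimulated ones 10, 13 and 9. LNA1 cells had 13, 5 and 3 and then 12, 7 and 10 counts, and LNA2 cells had 13, 5 and 10 and then 4, 6 and 6. The stimulated LNA2 libraries lay below all stimulated ctrlA and LNA1 libraries in CPM, and the other groups compared overlapped.

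Over both states Cd34 was at 0.897 CPM (SD 0.169, n = 6) with ctrlA, 0.703 (SD 0.335) with LNA1 and 0.574 (SD 0.274) with LNA2. The log2 fold change was -0.34 (SE 0.32, adjusted p = 1) for LNA1 and -0.67 (SE 0.33, adjusted p = 0.503) for LNA2, and -0.18 (SE 0.27, adjusted p = 0.896) for isoproterenol. None was called with the block, where LNA2 against ctrlA had an adjusted p of 0.127. Without the replicate 2 libraries the value was -0.88 for LNA1 (SE 0.37, adjusted p = 0.345) and -0.875 for LNA2 (SE 0.36, adjusted p = 0.16), and leaving out single libraries moved that of LNA1 from -0.703 to -0.193. Cd34 was lower with LNA2 in 5 of 6 same-numbered pairs, and counts of 3 to 15 per library limit the precision of these differences. Cd34 also shared stretches of at least 100 bases at 90% identity or more with 24 other annotated genes and overlaps Gm16897 on the opposite strand.

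Dlk1 (ENSMUSG00000040856, chr12:109452823-109463336, plus strand) was near the floor. Its 79 counts over 18 libraries were 2, 8 and 4 in replicates 2, 3 and 4 of unstimulated and 2, 8 and 8 of stimulated ctrlA cells. LNA1 cells had 1, 6 and 2 and then 0, 6 and 2 counts, and LNA2 cells 1, 9 and 8 and then 2, 5 and 5. Replicate 2 had 0 to 2 counts in every group, and 8 of the 18 libraries were at or under 3 counts.

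Thy1 (ENSMUSG00000032011, chr9:44043384-44048579, plus strand) had 15 counts over 18 libraries, never more than 2 in a library and none in 6. Dpp4 (ENSMUSG00000035000, chr2:62330073-62412231, minus strand) had no count in 18 of 18 libraries, which allows up to 0.17 to 0.306 CPM. In exact two-sided permutation tests of CPM within strata, the 8 comparisons of Dlk1 and Thy1 gave p = 0.24 to 0.943, and the lowest, Dlk1 with LNA1 against ctrlA, was 0.787 after adjustment over the 8. The smallest p such a test can give was 0.005 for an LNA and 0.00025 for isoproterenol. Dlk1 was lower with LNA1 than with ctrlA in 6 of 6 same-numbered pairs. When labels were exchanged only within same-numbered pairs, a test added after seeing the data, that difference of -0.181 CPM had an exact two-sided p of 0.0312, the smallest that 6 pairs can give, and 0.25 after adjustment over the 8 comparisons. The other 7 exact tests gave p = 0.125 to 0.93, and none passed the adjustment.

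**Figure D3:**
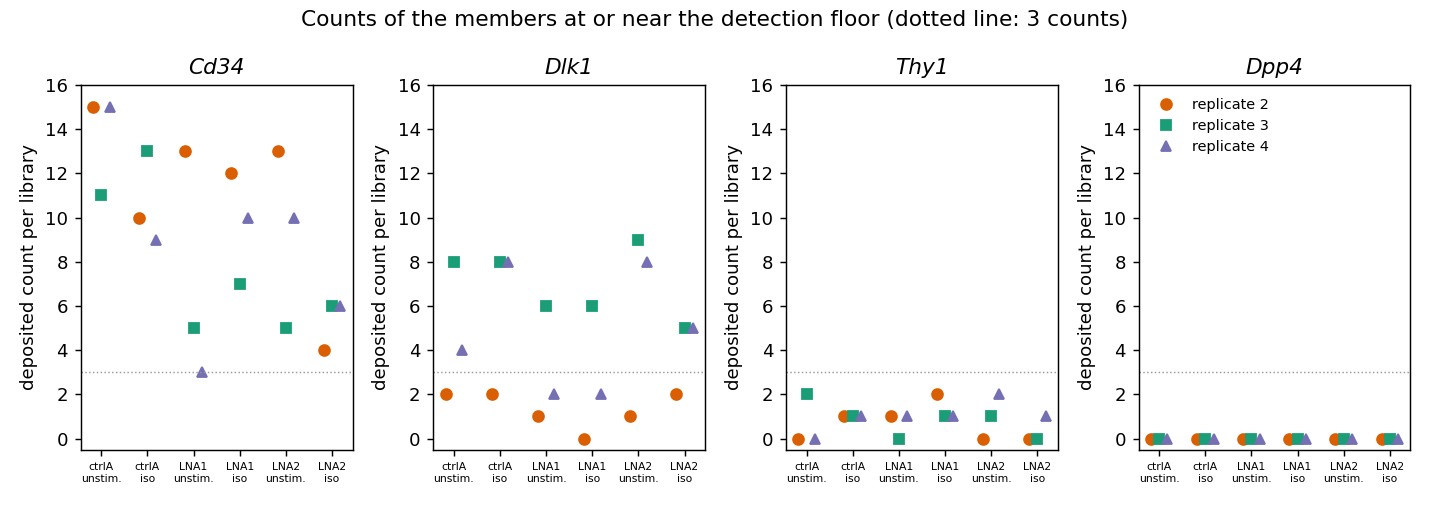
Deposited count per library (linear axis) of Cd34, Dlk1, Thy1 and Dpp4 by group, with symbols for replicate numbers and a dotted line at 3 counts. Cd34 lies at 3 to 15 counts, Dlk1 at 0 to 9, Thy1 at 0 to 2 and Dpp4 at 0 throughout.

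The Dlk1 locus and the Notch pathway were listed with 19 genes, of which 18 had a row and 10 were tested. At the imprinted locus, Meg3, the maternally expressed lncRNA, had 7 counts in all, Mirg 5 and Dio3 none. Rtl1 had 90 counts at a mean of 0.398 CPM, with none in 1 library. Dlk1 was thus not alone at or near the floor. Notch1, Notch2 and Notch3, the receptors, were at mean levels of 33, 55.3 and 63.2 CPM, and the ligand gene Jag1 was at 26.5 CPM. No gene of the list was called without the block. With the block, Notch3 rose with isoproterenol, its log2 fold change being 0.87 (SE 0.08, adjusted p = 4.44e-07) and Sox9, a transcription factor that DLK1 acts through in preadipocytes, by 0.57 (SE 0.10, adjusted p = 0.00049), and no other gene of the list passed in any of the 4 contrasts. The blocked fit called 7% of all genes with isoproterenol.

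Binding partners and relatives of the remaining members gave 14 genes, 9 of them tested. Fap, a peptidase of the DPP4 family and a fibroblast gene, had 2 counts in all, whereas Dpp8 and Dpp9, its intracellular relatives, were at 78 and 71 CPM. Itgb3, the β3 integrin subunit that pairs with αv, a receptor for THY1, was the 1 gene called against ctrlA, with LNA2. Its log2 fold change was 1.53 (SE 0.32, adjusted p = 0.0239), and 1.42% of all genes were called in that contrast. Itgb3 was low, with 258 counts in all and a mean of 1.11 CPM (0.245 to 2.31). Cxcl12, a chemokine that DPP4 cleaves, was lower by 2.05 with isoproterenol (SE 0.56, adjusted p = 0.0526) and passed with the block at -1.96 (SE 0.12, adjusted p = 8.26e-09). With the block Itgb3 rose with isoproterenol as well, by 0.915 (SE 0.22, adjusted p = 0.00611). With isoproterenol Cav1, which encodes caveolin, fell by 0.55 (SE 0.05, adjusted p = 4.08e-07) with the block, where 7% of all genes were called.

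Of 23 further progenitor and preadipocyte genes with a row, 15 were tested and 8 were too low, among them Cd55 and Wnt2 with no count in 18 of 18 libraries. With isoproterenol 1 rose and 2 fell, where 3.2% of all genes were called, and with the block 2 rose and 3 fell, where 7% were. Ccn5, a secreted matricellular protein also called WISP2, rose by 1.54 (SE 0.21, adjusted p = 0.000364), F3, the tissue factor gene that marks a regulatory stromal population, fell by 0.69 (SE 0.12, adjusted p = 0.00229), and Osr1, a transcription factor of mesenchymal progenitors, fell by 0.82 (SE 0.16, adjusted p = 0.00682). The block added Ebf2, a transcription factor of brown preadipocytes, at -0.527 (SE 0.08, adjusted p = 6.45e-05), and Gata2, a preadipocyte transcription factor, at 0.648 (SE 0.19, adjusted p = 0.0194). None was called with LNA1 or LNA2, and with the block Vcam1, an adhesion molecule, fell with LNA2 by 0.73 (SE 0.07, adjusted p = 9.49e-06) and was lower than with LNA1, at -0.66 (SE 0.08, adjusted p = 3.79e-05). The list's median was -0.1 with isoproterenol and 0.07 and 0.041 with LNA1 and LNA2, beside -0.0021, -0.02 and -0.018 over all genes tested. Among the 12 mature adipocyte genes 2 rose and 1 fell with isoproterenol, where 3.2% of all genes were called. Ucp1 rose by 3.51 (SE 0.17, adjusted p = 1.12e-08) and Cidea, a lipid droplet protein, by 1.27. Adipoq, the adiponectin gene, fell by 0.71 (SE 0.14, adjusted p = 0.0073). The median over these 12 was -0.19. Fabp4 at -0.449, Lipe at -0.39, Cidec at -0.388 and Cd36 at -0.385 were short of the fold limit, and their adjusted p-values with the block were 6.46e-06, 1.42e-05, 2.07e-05 and 8.9e-05. None of the 12 was called with an LNA, with or without the block, and the values were negative in 12 of 12 with LNA1 (median -0.1) and in 10 of 12 with LNA2 (median -0.17).

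Across all these lists, 17 differences were called with the block alone. The blocked fit without the replicate 2 libraries called 15 of them and gave the same direction for all 17. The exceptions were Sox9 at 0.447 (SE 0.08, adjusted p = 0.00455), short of the fold limit, and Gata2 at 0.504 (SE 0.24, adjusted p = 0.216), both with isoproterenol.

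Within each group, the libraries of replicate 2 differed from those of 3 and 4 in the members as well. Cd24a was 4.06 to 5.6 times and Ly6a 2.13 to 3.36 times as high in replicate 2, in 6 of 6 groups each. Pdgfrb was lower in 6 of 6 groups, at 0.549 to 0.753 times. Pdgfra stayed at 0.693 to 1.07 times and Cd34 ranged from 0.814 to 2.95. Dlk1 was lower in 6 of 6 groups, with 8 counts over the 6 replicate 2 libraries against 71 over the other 12.

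On the log2 scale, replicate 2 minus the mean of 3 and 4 was 2.23 for Cd24a, 1.52 for Ly6a and -0.63 for Pdgfrb. Of all genes tested 10.8% had an absolute value above 1 and 0.776% one above 2, as Cd24a did. The libraries of one number may come from one culture, so this is a description with no test. The larger share of CT010467.1 and of mitochondrial genes goes with the same 6 libraries, and their part in these differences was not tested.

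**Figure D4:**
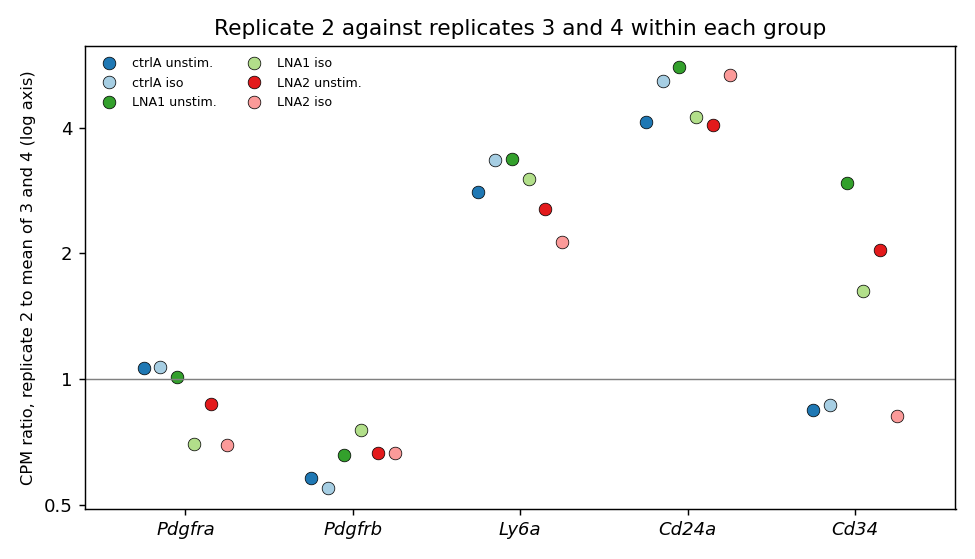
Ratio of the level in replicate 2 to the mean level of replicates 3 and 4 (log axis) for the 5 tested members, with 1 point per group. Cd24a lies at 4.06 to 5.6 and Ly6a at 2.13 to 3.36 in all groups, Pdgfrb lies below 1 in all groups, and Pdgfra and Cd34 fall on both sides of 1.

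Across the 18 libraries, after the mean of each replicate number was removed, the tested genes with the most similar pattern to Pdgfra were Pex7, a peroxisomal import receptor (r = 0.917), Emc1 (0.91) and Myo1g (0.905). For Ly6a they were Acsbg1, an acyl-CoA synthetase (0.982), Pex5, another peroxisomal import receptor (0.973), and Elk3, an ETS transcription factor (0.971). Pdgfrb was closest to Ass1, argininosuccinate synthase (0.924), Rasa3 (0.915) and Slc19a1, the reduced folate carrier (0.91). Cd24a was closest to Tbl1x (0.894), Dlg1 (0.883) and Wfdc3 (0.871), and Cd34 to Mettl8 (0.839), Lta4h (0.797) and Clp1 (0.791). Between members, Ly6a and Cd24a had r = 0.7 and Pdgfrb and Cd24a r = -0.72. Pdgfra and Cd34 had r = -0.43 and Pdgfrb and Ly6a r = -0.41, and the other pairs had r from -0.16 to 0.19. The genes most similar to each member have the highest of many correlations over libraries that share treatments. All these values are given as a description.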

How the data were processed

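The authors deposited one table of expected counts per gene, estimated by them with salmon against GENCODE M22 (GRCm38) after bcl2fastq and cutadapt, for 18 libraries of differentiated wt1-SAM cells. Versions and use of strand are not given in the sources used here. All deposited counts were whole numbers. Total counts were 9167560 to 19723021, and intervals and floors cover counting error only.

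Groups came from the labels. Genes were filtered with filterByExpr (minimum count 10, total 15), scaled by TMM and tested with edgeR 4.0.16 (R 4.3.3; glmQLFit, glmQLFTest, 1 term per group), with Benjamini-Hochberg adjustment over 14949 genes. A call needed an adjusted p below 0.05 and an absolute log2 fold change above 0.5; interactions needed the p alone and the joint test an adjusted p below 0.001. CPM were counts per TMM-scaled library size. Pseudocount for correlations: a prior count of 2. Genes under the filter were tested by exact permutation. The code was tested on simulated data.

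All members were named, the 5 tested ones with their 3 most similar genes, and from each list and contrast up to 4 called genes; genes called with the block alone were added after their values were seen, as were other list genes given for context. The members and lists were chosen with earlier results of these data known. Replicate numbers were taken to pair the libraries, so blocked values are given beside calls they change. Deviations from group means correlated in every same-numbered pair (lowest r 0.24, and 0.65 to 0.72 in replicate 2). Pairs with different numbers had r from -0.6 to 0.4. Replicate 3 had 0.25 to 0.51 and replicate 4 had 0.24 to 0.47, so these ranges overlapped. Centring each group on its mean passes part of the replicate 2 offset to replicates 3 and 4, so their r does not by itself show pairing. Of 18 libraries, 17 were closest to one of their own number. No 2 libraries of a group were alike within sampling noise. Nothing says that they came from separate cultures, so p-values measure the spread between these samples. Alternatives were the block, DESeq2 1.42.0, RLE factors, no filter, each library left out and replicate 2 left out. After seeing the data, the block was combined with both ways of leaving libraries out, and labels were exchanged within same-numbered pairs for Dlk1 and Thy1.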

Additional observations from a re-analysis of the deposited data

How the results depend on the processing

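Calls followed the model more than the scaling. With the replicate block, the count of members called rose from 1 to 2 for LNA2 against ctrlA (2 as well with the block and without replicate 2). It rose from 0 to 1 for LNA2 against LNA1 and from 0 to 4 in the joint test. The share of all genes called rose as well, from 1.42% to 5.53%, from 0.923% to 4.11% and from 0.455% to 8.93%, in that order. DESeq2 called 1 member and 3.72% of genes in the joint test. With no filter on low counts LNA2 against ctrlA called 0, where the log2 fold change of Pdgfra was 0.696 beside 0.713 with the filter. Without the replicate 2 libraries the blocked counts were 0 for LNA2 against LNA1 (3.44% of genes) and 0 in the joint test (1%). The block changed no other call of a member averaged over states or in an interaction. Within single states, leaving aside Pdgfra against ctrlA, no member passed without it, and the block gave adjusted p of 0.000136, 6.25e-05 and 0.000682 for Ly6a with isoproterenol in ctrlA, LNA1 and LNA2 cells, 0.0453 for Ly6a with LNA2 unstimulated, and, for Cd24a, 0.000155 with isoproterenol in LNA1 cells and 0.0174 with LNA1 under isoproterenol. Leaving out single libraries gave 0 to 1 members with isoproterenol; with the block these counts were 2 for LNA2 against ctrlA, 0 to 1 for LNA2 against LNA1, 1 to 2 for isoproterenol and 2 to 4 in the joint test. Shares over all genes are not given for the fits with single libraries left out, so nothing about the members is read from those counts. The cause was not tested.

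Values that were not called changed sign in places. Without replicate 2, the isoproterenol value was 0.045 for Pdgfra (0.0447 with the block) and 0.122 for Cd34 (0.132 with the block), and Cd34 was at 0.00504 for LNA2 against LNA1. Cd24a with LNA2 against ctrlA was -0.0023 in DESeq2, -0.00936 with RLE factors and -0.00875 without the filter. In CPM, Thy1 without replicate 2 was at -0.0136 for LNA1 and 0.00937 for LNA2 against LNA1, and at -0.0112 for isoproterenol; without single libraries these ranged up to 0.0454, from -0.0551 and up to 0.0279.

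Over single libraries left out, values that changed sign were as follows. With isoproterenol, Pdgfra ranged from -0.0875 to 0.0259 (block -0.0881 to 0.0222), Cd34 from -0.285 to 0.0677 (block -0.263 to 0.0519) and Dlk1 from -0.0666 to 0.0461 CPM. With LNA1 against ctrlA, Ly6a ranged from -0.281 to 0.563 and Cd24a from -0.418 to 0.887. With LNA2 against ctrlA, Cd24a ranged from -0.641 to 0.633 (block -0.036 to 0.0802), Dlk1 from -0.122 to 0.0511 CPM and Thy1 from -0.0338 to 0.0075 CPM. Between LNA2 and LNA1, Cd34 ranged from -0.509 to 0.0375 and Cd24a from -0.89 to 0.418. The unblocked Cd24a interaction with LNA1 ranged from -0.723 to 1.63. Counts of 15 or fewer per library limit Cd34, Dlk1, Thy1 and Dpp4.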
